A study of Homo sapiens with 8 samples.

Results

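The genes described here encode the proteins that sense DNA damage, pass the signal on and repair the lesion. They were taken as a list of 42 gene names, chosen by what the proteins do and not by their values, out of 36337 gene names on the arrays. All 42 had at least 1 probe, with 69 probes in all, and for each gene the values below are those of the probe with the highest mean signal over the 8 arrays unless another is named. That probe was well above background on all 8 arrays for 41 genes, and LIG4 was the exception. The samples are human HEK293 cells, an embryonic kidney line transformed with adenovirus genes, in the tetracycline-inducible form called FT293. Each line carries 1 transgene at a fixed site in the genome, which codes for GFP alone or for GFP fused to HuR, TIA1 or TIAR. HuR, TIA1 and TIAR are RNA-binding proteins that act on the splicing, stability and translation of other messages. RNA was taken on the third day after tetracycline, and the question asked of these genes is how their RNA differed between lines that express a TIA protein (TIA1 or TIAR), HuR or GFP. All lines had the same host, tetracycline and GFP, and each was measured as 2 independent biological replicates, 1 array each. RNA per gene comes from the whole culture, so fewer cells with a message and less message per cell cannot be told apart.

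DNA damage is handled by separate routes that share a signal. ATM and ATR are kinases that detect double-strand breaks and stalled replication forks, and they pass the signal to the checkpoint kinases CHEK2 and CHEK1. Breaks are joined by homologous recombination, which copies a sister chromatid, or by non-homologous end joining, which ligates the ends directly. Crosslinks between strands go to the Fanconi anaemia proteins, misread bases to mismatch repair, small base lesions and nicks to base excision repair, and bulky lesions to nucleotide excision repair, while MGMT takes alkyl groups straight off guanine. Most of these proteins are controlled after their RNA is made, by phosphorylation, ubiquitination or relocation, which arrays do not measure.

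One library stood apart. GFP 1 had a local background of 88.7 against 37.2 to 43.2 on the other 7 arrays, and 86.0% of its probes were well above background against 53.2% to 58.5%. Its correlation with GFP 2 was 0.947 over all probes, and replicates of the other lines correlated at 0.993 to 0.997. The median difference between replicates over the 42 genes was 0.35 on the log2 scale in GFP, 0.09 in HuR, 0.14 in TIA1 and 0.10 in TIAR. Of 8 markers of the HEK293 lineage, PAX2, LHX1, EYA1, NEFL, NES and VIM were well above background on all 8 arrays, NEFM on 7 and PAX8 on 2. Among markers of blood, liver, islet, glial and endothelial cells, the probes of PTPRC and CDH5 were above background on all 8 arrays, ALB on 6, INS on 4, CD3E on 2, and GFAP and HBB on 1. GFP 1 was the highest array for PTPRC, at a log2 signal of 1.12 against -4.66 to -3.94 elsewhere. A TIAL1 probe, for the gene of TIAR, read 4.87 and 4.98 in the TIAR line and 1.63 to 2.52 elsewhere. The probes of ELAVL1, the gene of HuR, and of TIA1 were not raised in their own lines, and whether they lie inside the transgenes is not known here, so they check no label. Lines are therefore named as labelled.

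Signal is given as the log2 of an array's processed intensity minus that array's 75th percentile, so that 0 is the 75th percentile and 1 is a doubling. A gene is said to have risen or fallen where limma, fitted over all tested probes, gave a Benjamini-Hochberg adjusted p under 0.05, and to be called where the fold was also at least 2. Against HuR, 41 of the 42 genes were tested in TIA1-expressing cells. Of these 8 rose, 5 fell and 28 did not pass. Over all tested probes 41.5% passed, 24.2% higher and 17.3% lower, while of the genes 31.7% passed. None of the 41 was called, against 13.4% of all probes. Before adjustment 17 of the 41 had p under 0.05 in limma, beside 52.4% of all probes. The study itself compared its arrays with limma, at 2-fold and a false discovery rate under 0.05. Its methods name a paired t-test for comparing groups. By that t-test, with arrays paired by replicate number, 7 genes were under 0.05 before adjustment, beside 21.4% of all probes. None of these 7 was 2-fold apart. The median difference of the genes from HuR was 0.12, beside 0.08 over all probes, and the median size of the differences was 0.27 beside 0.39.

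In TIAR-expressing cells all 42 genes were tested against HuR. Here 7 rose, 1 fell and 34 did not pass, so that 19.0% passed, against 30.7% of all probes, of which 18.1% were higher and 12.6% lower. The called genes were XRCC3, which was lower by its brighter probe and higher by its other probe, and LIG4, which was higher, or 4.76% of the genes beside 10.1% of all probes. LIG4 was tested only because its TIAR arrays passed the filter on dim probes, so it had to differ, and without it 41 genes gave 6 higher, 1 lower and 1 call. The median difference was 0.06, beside 0.05 over all probes, and the median size was 0.17 beside 0.34. Of all called probes 63.4% were higher in TIA1 and 70.2% in TIAR, or 52.9% and 56.1% after quantile normalization. Both comparisons use the same HuR arrays. Each rests on both of those arrays: with either HuR array left out, none of the genes passed in either comparison, while without HuR 1 and without HuR 2 in turn 8.60% and 8.47% of all probes still passed for TIA1 and 0% and 2.08% for TIAR. Leaving out a HuR array turned the direction of none of the genes that had passed. In TIA1, MDC1 was at 0.95 without HuR 1 and 0.90 without HuR 2, and XPA at -0.50 and -0.35. By their brightest probes, the repair genes other than LIG4 sat inside the bulk of all differences. The probes set beside them include dim ones. In TIA1 the called share of all probes was 7.66% with another background correction (normexp) and 5.91% with the authors' values. The part of brightness in the gap was not tested. Unequal change between the lines is all that these scaled values show, since every array was set to its own 75th percentile.

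**Figure D1:**
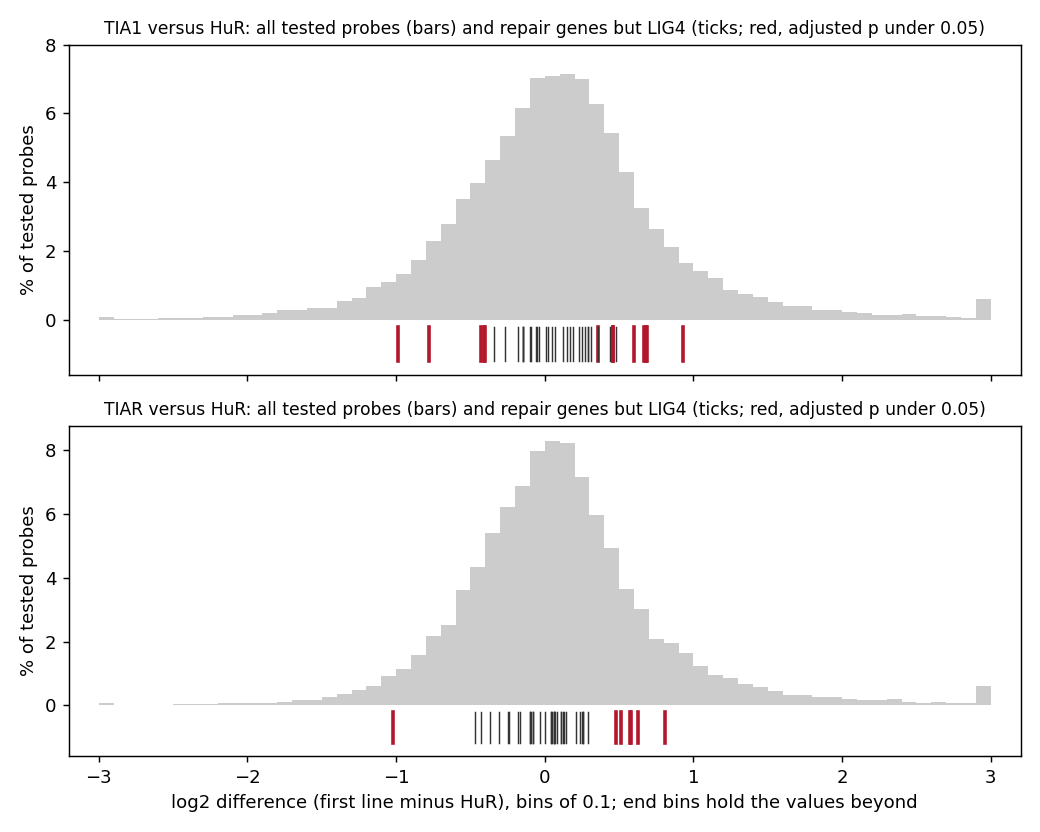
Log2 difference of TIA1-expressing cells (top) and TIAR-expressing cells (bottom) from HuR-expressing cells on the x axis, with the percent of all tested probes per bin as bars and the repair genes except LIG4 as ticks below the bars, red where the adjusted p from limma was under 0.05. The ticks lie between -1.02 and 0.93, inside the bulk of the bars.

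MDC1, MRE11A, OGG1 and XRCC1 are the genes that passed, upwards, in each comparison with HuR. Their promoter windows are shown because these genes stood higher than HuR in both TIA lines, though MRE11A was lower there than in GFP. The windows are the 250 bases before the start of the RefSeq transcript, written 5′ to 3′ on the gene's strand in build GRCh38.p14, with capitals for GGGCGG (the GC box) and CCAAT (the CCAAT box) or their reverse complements. MDC1 lies on the minus strand at chr6:30717282-30717531, MRE11A (MRE11 in RefSeq) on the minus strand at chr11:94493845-94494094, OGG1 on the plus strand at chr3:9749702-9749951 and XRCC1 on the minus strand at chr19:43575528-43575777.
MDC1: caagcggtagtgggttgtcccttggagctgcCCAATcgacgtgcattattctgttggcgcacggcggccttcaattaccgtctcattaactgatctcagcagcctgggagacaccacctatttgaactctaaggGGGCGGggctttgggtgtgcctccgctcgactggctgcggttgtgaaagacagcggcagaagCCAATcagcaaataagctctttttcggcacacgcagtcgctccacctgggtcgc
MRE11A: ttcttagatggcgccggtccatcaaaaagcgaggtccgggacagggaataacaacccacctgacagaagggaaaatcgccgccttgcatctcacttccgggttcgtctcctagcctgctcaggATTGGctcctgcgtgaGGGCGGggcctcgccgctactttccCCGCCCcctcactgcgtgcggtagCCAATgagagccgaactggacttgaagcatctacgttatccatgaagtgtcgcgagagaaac
OGG1: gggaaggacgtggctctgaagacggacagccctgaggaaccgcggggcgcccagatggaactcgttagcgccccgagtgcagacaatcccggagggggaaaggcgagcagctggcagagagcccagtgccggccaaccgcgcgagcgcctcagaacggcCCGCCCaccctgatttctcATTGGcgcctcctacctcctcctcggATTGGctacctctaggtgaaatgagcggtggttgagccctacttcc
XRCC1: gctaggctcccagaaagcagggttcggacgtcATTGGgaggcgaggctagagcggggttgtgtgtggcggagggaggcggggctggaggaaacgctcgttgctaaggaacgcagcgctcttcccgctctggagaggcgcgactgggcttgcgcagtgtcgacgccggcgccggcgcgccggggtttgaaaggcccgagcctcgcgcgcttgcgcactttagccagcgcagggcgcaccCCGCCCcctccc
All of these windows hold at least 1 GC box and 1 CCAAT box, and MDC1, MRE11A and OGG1 hold 2 CCAAT boxes each. GC content ran from 56.8% in MDC1 to 70.0% in XRCC1. A window was found for 38 of the 42 genes. A GC box was in 71.1% of them and in 42.3% of 27305 promoters of the same length, and a CCAAT box in 47.4% and 33.0%. The letters are a description and not a sign of any factor's binding.

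Among the sensors and signalling proteins at breaks, MDC1 and MRE11A rose and TP53BP1 fell. MDC1 is the scaffold that binds phosphorylated histone H2AX at a break, and its probe lies on hg19 at chr6:30667733-30667792. It read 3.32 and 3.64 in GFP, 3.40 and 3.35 in HuR, 4.38 and 4.24 in TIA1, and 3.96 and 3.92 in TIAR. Both TIA lines lay above every GFP and HuR array, and TIA1 above TIAR. MDC1 rose by 0.93 in TIA1 against HuR (SE 0.10, adjusted p = 0.00588 from limma) and by 0.57 in TIAR (SE 0.09, adjusted p = 0.0193 from limma). MRE11A encodes the nuclease of the MRN complex, which trims the ends of a break, and its probe lies on hg19 at chr11:94192656-94192715. Its levels were 1.32 and 1.04 in GFP, 0.18 and 0.06 in HuR, 0.85 and 0.75 in TIA1, and 0.71 and 0.70 in TIAR. HuR was lowest and GFP highest, with TIA1 and TIAR between and no overlap among lines. MRE11A stood 0.68 above HuR in TIA1 (SE 0.10, adjusted p = 0.0118 from limma) and 0.58 in TIAR (SE 0.10, adjusted p = 0.0212 from limma). Its difference of HuR from GFP was -1.05 (SE 0.19), which did not pass in limma (adjusted p = 0.189).

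The other subunits of the MRN complex did not pass. RAD50, its ATPase, differed from HuR by -0.09 in TIA1 and 0.26 in TIAR, and NBN, its signalling subunit, by 0.05 and 0.21. Of this complex only MRE11A thus passed, and the differences of its subunits were not tested against each other. H2AFX, the histone that ATM phosphorylates, differed by 0.36 and 0.25 and did not pass (adjusted p = 0.0677 and 0.153 from limma), with its HuR arrays below all others. TP53BP1, the chromatin reader that holds back the trimming of ends, read 1.45 and 1.48 in HuR and 1.10 and 1.02 in TIA1. It fell by 0.41 in TIA1 (SE 0.09, adjusted p = 0.0301 from limma) and differed by -0.10 in TIAR.

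**Figure D2:**
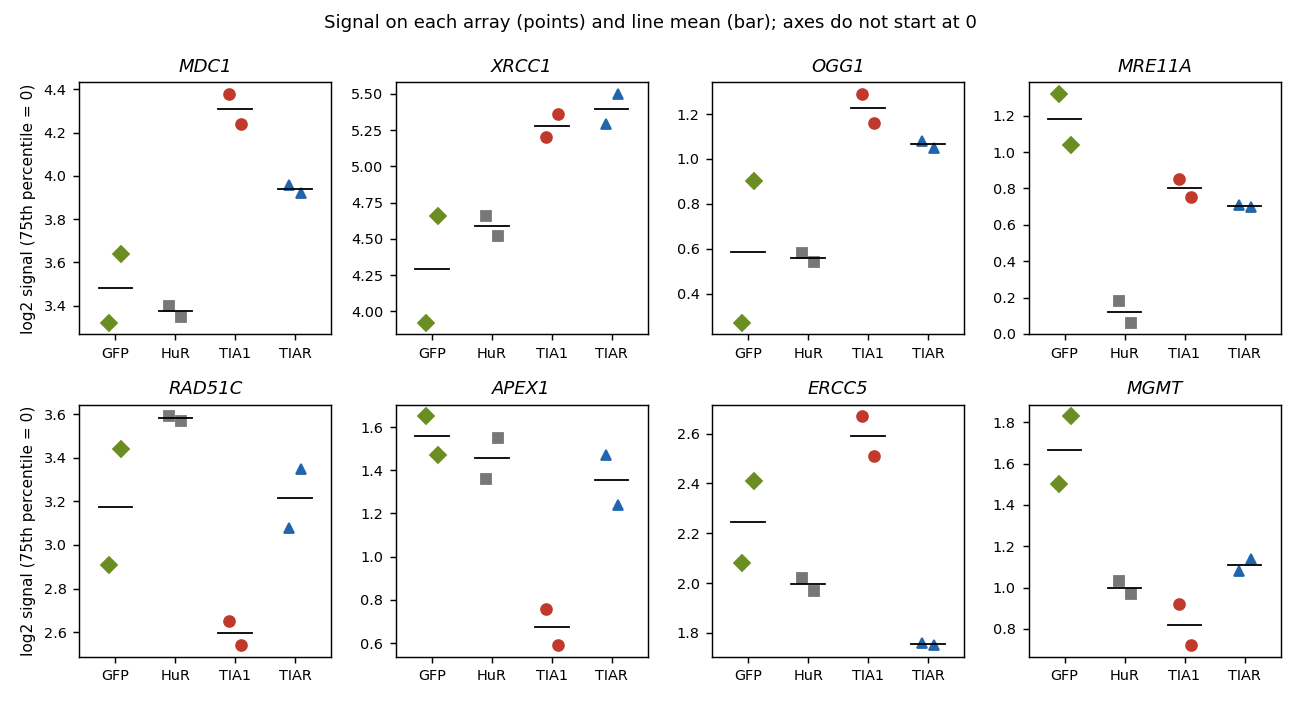
Log2 signal relative to the array's 75th percentile (y axis, not starting at 0) on each array for 8 genes, by line on the x axis, with points for arrays and bars for the mean of 2. MDC1, XRCC1 and OGG1 lie higher on all TIA1 and TIAR arrays than on the others, RAD51C and APEX1 are lowest in TIA1, and ERCC5 is highest in TIA1 and lowest in TIAR.

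None of the 4 damage kinases passed against HuR by its brightest probe. ATM, switched on by breaks, differed by -0.15 in TIA1 and -0.03 in TIAR, while another of its 3 probes fell by 0.50 in TIAR (SE 0.09, adjusted p = 0.0253 from limma) and differed by -0.27 in TIA1. ATR, switched on at stalled forks, differed by 0.12 and -0.25. CHEK2, the kinase below ATM, differed by 0.07 and 0.06, with SEs of 0.10. CHEK1, the kinase below ATR, moved most of the 4, and read 0.56 and 1.06 in GFP, 1.10 and 1.19 in HuR, 1.48 and 1.39 in TIA1, and 0.83 and 1.29 in TIAR. Its TIA1 arrays lay above all others and its TIAR arrays around those of HuR. The differences of 0.29 and -0.09 did not pass (adjusted p = 0.0773 and 0.75 from limma).

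In homologous recombination RAD51C fell in TIA1, and XRCC3, its partner in a complex, had probes of opposite sign in TIAR. RAD51C, with its probe on hg19 at chr17:56772439-56772498, read 2.91 and 3.44 in GFP, 3.59 and 3.57 in HuR, 2.65 and 2.54 in TIA1, and 3.08 and 3.35 in TIAR. TIA1 was lowest and HuR highest, each clear of all other arrays. It fell by 0.99 in TIA1 against HuR (SE 0.10, adjusted p = 0.00472 from limma), just short of 2-fold, and differed by -0.37 in TIAR (adjusted p = 0.099 from limma). The same probe passed the 2-fold limit when replicate 1 of TIA1 was left out.

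XRCC3 depended on the probe. Its brighter probe, on hg19 chromosome 14 from 104170734 to 104170793 and designed on a transcript of Ensembl, read 5.90 and 5.81 in GFP, 6.78 and 6.94 in HuR, 6.90 and 7.44 in TIA1, and 5.70 and 5.98 in TIAR. TIAR lay with GFP, and TIA1 with HuR. The probe fell by 1.02 in TIAR against HuR (SE 0.14, adjusted p = 0.0143 from limma) and differed by 0.31 in TIA1. The second probe, on NM_001100119 from 104163955 to 104164014, read 3.61 and 3.54 in HuR, 4.12 and 4.13 in TIA1, and 4.05 and 4.04 in TIAR. It rose by 0.54 in TIA1 and by 0.47 in TIAR against HuR (adjusted p = 0.0148 and 0.029 from limma). In TIAR the 2 probes of XRCC3 thus passed in opposite directions, and no single direction is given for the gene. The remaining 6 genes of the pathway did not pass in either comparison. BRCA1, the ubiquitin ligase that opens this route, differed from HuR by -0.10 in TIA1 and 0.24 in TIAR, and its partner BARD1 by 0.27 and 0.29. The bridge PALB2 differed by -0.34 and -0.08, the tumour suppressor BRCA2 by -0.15 and 0.07, XRCC2 by 0.29 and 0.06 and the helicase BLM by 0.17 and 0.11.

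In the Fanconi anaemia pathway 2 of 4 genes rose in TIA1 and 1 in TIAR. FANCA, a subunit of the core ligase complex, read 0.31 and 0.88 in GFP, 0.50 and 0.40 in HuR, 0.69 and 0.70 in TIA1, and 1.02 and 1.13 in TIAR. Its TIAR arrays were the highest. FANCA rose by 0.63 in TIAR against HuR (SE 0.10, adjusted p = 0.0192 from limma), and its other probes rose by 0.57 and 0.93. In TIA1 the difference was 0.25 and did not pass (adjusted p = 0.101 from limma). FANCC, also of the core, rose by 0.36 in TIA1 (SE 0.10, adjusted p = 0.0493 from limma), and FANCD2, the clamp subunit that the core ubiquitinates, by 0.46 (SE 0.10, adjusted p = 0.0252 from limma). A second FANCD2 probe rose by 0.63 in each TIA line, while the remaining one, with values of -3.33 to -2.57, differed by -0.14 and 0.21. FANCI, the partner of FANCD2, differed by -0.05 in TIA1 and -0.43 in TIAR (adjusted p = 0.694 and 0.0569 from limma).

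In non-homologous end joining XRCC4 rose in TIAR, and the genes of end binding did not pass. XRCC4, the scaffold of the ligase IV complex, read 0.07 and 0.04 in HuR, 0.64 and 0.36 in TIA1, and 0.58 and 0.50 in TIAR. It rose by 0.48 in TIAR (SE 0.09, adjusted p = 0.0282 from limma), and its 0.44 in TIA1 did not pass (adjusted p = 0.058). LIG4, the ligase itself, was dim. It read -7.60 and -6.39 in GFP, -7.93 and -7.68 in HuR, -5.34 and -6.19 in TIA1, and -5.88 and -3.73 in TIAR. Only 3 arrays, both of TIAR and 1 of TIA1, were well above background. The TIAR arrays were 2.15 apart, the widest gap between replicates of any gene and line here. With a mean of -4.80 in TIAR and a measured mean of -7.81 in HuR, the bound in these signals was at least 2.32-fold higher in TIAR. The adjusted p of 0.0481 from limma belongs to the difference between these means and not to the bound. No conclusion is drawn from that p, because LIG4 was tested only through the filter that its TIAR arrays passed and its HuR arrays did not. The bound fell to 1.10-fold without TIAR 2 and was 4.89-fold without TIAR 1, and the log2 difference in the authors' values was 0.69 (adjusted p = 0.106 from limma), so its size depended on TIAR 2 and on how the signals were processed. On each HuR array the bound uses the dimmest signal that still counted as well above background, unless LIG4 itself was brighter. XRCC6 and XRCC5, which form the Ku ring on broken ends, differed by 0.15 and -0.27 in TIA1 and by 0.00 and -0.08 in TIAR, and the kinase PRKDC by -0.06 and 0.14.

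Mismatch repair was covered by 2 genes. MSH6, a subunit of the mismatch sensor, read 4.07 and 4.39 in GFP, 4.44 and 4.40 in HuR, 4.89 and 4.88 in TIA1, and 4.66 and 4.71 in TIAR. No lines overlapped, with GFP lowest and TIA1 highest. MSH6 rose by 0.46 in TIA1 (SE 0.09, adjusted p = 0.0205 from limma), and its 0.26 in TIAR did not pass (adjusted p = 0.105). PMS2, the endonuclease subunit, has near-identical pseudogene copies that its probes may also bind. Its brightest probe differed by 0.02 and -0.31, and 2 of its other 5 probes fell in TIAR, by 0.66 and 0.54 (adjusted p = 0.0147 and 0.0222 from limma).

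In base excision and single-strand break repair 2 of 6 genes rose and 2 fell in TIA1, and 2 rose in TIAR. XRCC1 is the scaffold that holds the ligase at a nick, and its probe, on hg19 at chr19:44047803-44048318, spans an intron. It read 3.92 and 4.66 in GFP, 4.66 and 4.52 in HuR, 5.20 and 5.36 in TIA1, and 5.29 and 5.50 in TIAR. All TIA1 and TIAR arrays lay above all others. XRCC1 rose by 0.69 in TIA1 (SE 0.12, adjusted p = 0.0143 from limma) and by 0.81 in TIAR (SE 0.13, adjusted p = 0.0179 from limma). OGG1 cuts oxidized guanine out of DNA, and its probe lies on hg19 at chr3:9808037-9808096. It read 0.27 and 0.90 in GFP, 0.58 and 0.54 in HuR, 1.29 and 1.16 in TIA1, and 1.08 and 1.05 in TIAR. The GFP arrays spanned those of HuR, and the TIA lines stood above both. OGG1 rose by 0.67 in TIA1 and 0.51 in TIAR (SE 0.10 and 0.09, adjusted p = 0.0118 and 0.024 from limma), and its second probe by 0.54 and 0.48.

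APEX1 and LIG3, which act in the same route, went the other way in TIA1. APEX1 cuts the backbone where a base is missing, and its probe, on hg19 at chr14:20924246-20924871, spans an intron. It read 1.65 and 1.47 in GFP, 1.36 and 1.55 in HuR, 0.76 and 0.59 in TIA1, and 1.47 and 1.24 in TIAR. TIA1 was alone at the low end, and the other lines overlapped or touched. APEX1 fell by 0.78 in TIA1 (SE 0.12, adjusted p = 0.0128 from limma) and differed by -0.10 in TIAR. LIG3, the ligase that XRCC1 holds, read -0.55 and -0.84 in GFP, -1.47 and -1.34 in HuR, -1.83 and -1.78 in TIA1, and -1.64 and -1.52 in TIAR. It fell by 0.40 in TIA1 (SE 0.10, adjusted p = 0.0385 from limma), and its -0.17 in TIAR did not pass. The scaffold and its ligase therefore had opposite signs against HuR. UNG, which removes uracil, differed by 0.48 and 0.04, and PARP1, the sensor of nicks, by 0.23 and 0.05, and neither passed.

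In nucleotide excision repair ERCC5 differed between the TIA lines in the chosen fit. ERCC5, also XPG, cuts the damaged strand on the 3′ side, and its probe lies on hg19 at chr13:103527950-103528009. Its levels were 2.08 and 2.41 in GFP, 2.02 and 1.97 in HuR, 2.67 and 2.51 in TIA1, and 1.76 and 1.75 in TIAR. TIA1 was above all other arrays and TIAR below all of them. ERCC5 rose by 0.60 in TIA1 against HuR (SE 0.10, adjusted p = 0.016 from limma) and differed by -0.24 in TIAR (SE 0.09, adjusted p = 0.123). TIAR and TIA1 themselves differed by -0.83 (SE 0.12, adjusted p = 0.0455 from limma). This difference kept its sign but did not pass under 10 of 13 alternatives, with an adjusted p of 0.157 to 0.185 when any 1 array was left out. XPA, which checks the lesion, fell by 0.43 in TIA1 (SE 0.11, adjusted p = 0.0414 from limma) and differed by -0.18 in TIAR, while its second probe gave -0.07 and 0.24. ERCC1, a subunit of the nuclease on the 5′ side, had 2 probes: the brighter differed by -0.15 and -0.47 and did not pass, and the other fell by 0.45 in TIA1 and 0.44 in TIAR (adjusted p = 0.0219 and 0.0324 from limma). The lesion sensor XPC and the TFIIH helicases ERCC2 and ERCC3 differed from HuR by -0.04 to 0.19 in TIA1 and by 0.04 to 0.08 in TIAR.

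MGMT, the protein of direct reversal, read 1.50 and 1.83 in GFP, 1.03 and 0.97 in HuR, 0.92 and 0.72 in TIA1, and 1.08 and 1.14 in TIAR. GFP was above every other array. Its differences from HuR of -0.18 and 0.11 did not pass, and neither did those from GFP of -0.84 in TIA1, -0.55 in TIAR and -0.66 in HuR.

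**Figure D3:**
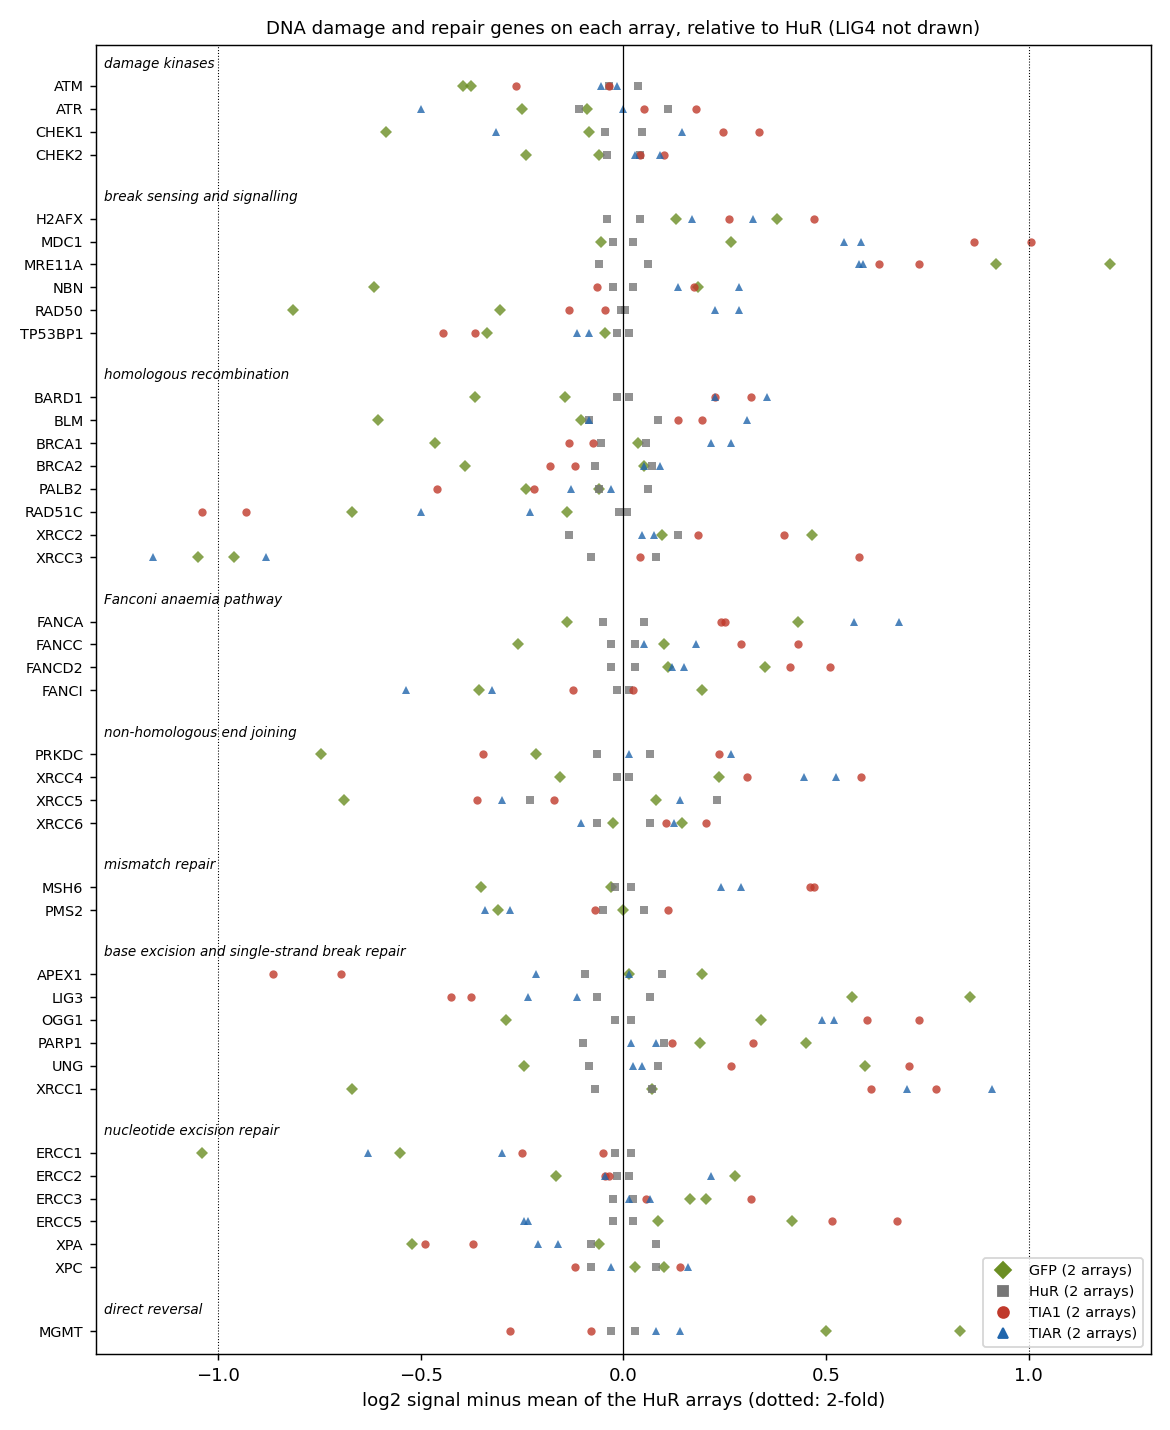
Log2 signal of each repair gene on each array minus the mean of the 2 HuR arrays (x axis), grouped by pathway, with 1 marker per array and LIG4 left out because its HuR arrays were not well above background. Replicates of GFP lie further apart, by a median of 0.35, than those of HuR (0.09), TIA1 (0.14) and TIAR (0.10).

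TIAR and TIA1 were also compared directly. None of the 42 genes was called, against 2.35% of all probes, and ERCC5 was the 1 gene that passed, against 3.49% of all probes. Unadjusted, 11 genes had p under 0.05 in limma and 4 in the paired t-test, beside 23.8% and 12.9% of all probes. The median size of the differences was 0.23, beside 0.22 over all probes. Differences that did not pass reached -1.33 for the brighter XRCC3 probe (adjusted p = 0.0585), 0.68 for APEX1 (adjusted p = 0.0813) and 0.62 for RAD51C (adjusted p = 0.0963), so these values do not show that the lines were alike.

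Against GFP no gene was called, in TIA1, TIAR or HuR, and over all probes the share was 0%, 0% and 0%. The smallest adjusted p of any probe in limma was 0.0576, 0.115 and 0.0903. Unadjusted, 7 genes in TIA1, 3 in TIAR and 5 in HuR had p under 0.05 in limma, beside 21.6%, 16.4% and 17.2% of all probes. The paired t-test gave 1, 1 and 2, beside 8.07%, 7.21% and 6.55%. The largest differences of tested genes that were well above background were -1.11 for LIG3 and 1.31 for the brighter XRCC3 probe in TIA1, 1.10 for XRCC1 in TIAR, and -1.05 for MRE11A and 1.00 for XRCC3 in HuR. The GFP arrays themselves lay apart, as for XRCC1 with 3.92 and 4.66. Without GFP 1, MGMT was called in TIA1 and XRCC3 in HuR, and none in TIAR, beside 11.5%, 8.53% and 6.39% of all probes in the same order. Without GFP 2, which leaves only the array that stood apart, XRCC1 and LIG3 were called in TIA1, RAD50, XRCC1 and LIG3 in TIAR, and MRE11A and ERCC1 in HuR, beside 45.0%, 41.6% and 47.2% of all probes in the same order.

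Arrays of a line or of both TIA lines that did not overlap the rest were counted without a test, over the 41 genes that were well above background on all arrays. The 29580 probes set beside them needed to be well above background only on both arrays of at least 1 line. Some of these probes may thus be dim in other lines, and what this does to their shares was not tested. The 4 TIA1 and TIAR arrays were above all GFP and HuR arrays for 6 genes, or 14.6%, beside 12.7% of 29580 probes. These were MDC1, BARD1, XRCC4, MSH6, OGG1 and XRCC1, and the same 6 without GFP 1, where the share of probes was 19.7%. The same arrays were below for LIG3, with 9.69% of probes, and without GFP 1 also for TP53BP1, RAD51C and XPA, with 15.2%. HuR was above all others for TP53BP1, RAD51C and ERCC1, with 11.6% of probes. It was below for H2AFX, MRE11A and FANCD2, with 15.5% of probes, and without GFP 1 for 8 genes, or 19.5%, beside 20.8%. TIA1 was above for 7 genes, with 12.5% of probes. It was below for 5, with 9.38% of probes, and without GFP 1 for 9, or 22.0%, beside 11.6%. TIAR was above for RAD50, BRCA1 and FANCA, with 6.41%, and below for ERCC5, with 5.67%, to which FANCI and PMS2 were added without GFP 1, with 8.03%. GFP was above for MRE11A, LIG3 and MGMT, with 9.86%, and GFP 2 alone for 7 genes, with 19.3%. It was below for ATM, CHEK2, RAD50, BARD1, BLM and MSH6, with 10.9%.

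For 14 genes more than 1 probe was tested against HuR. All probes of a gene had the same sign for 7 of the 14 in TIA1 and for 7 in TIAR, and the median gap between the probes of a gene was 0.33 and 0.34, beside median differences of 0.27 and 0.17 in size over the genes. XRCC3 in TIAR was the 1 case with probes that passed in opposite directions. CHEK2, which also has pseudogene copies, had 6 probes with differences of -0.46 to 0.22 that did not pass.

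**Figure D4:**
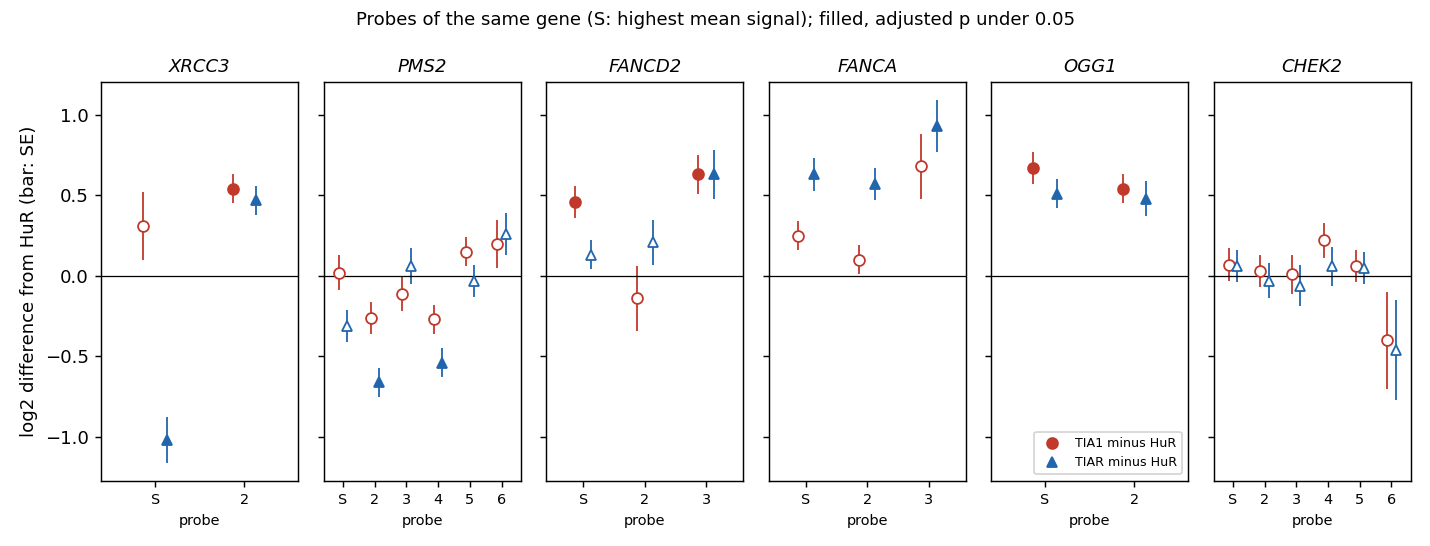
Log2 difference of TIA1 (circles) and TIAR (triangles) from HuR (y axis, bars for SE) for each tested probe of 6 genes (x axis, S for the brightest probe), filled where the adjusted p from limma was under 0.05. The XRCC3 probes lie at -1.02 and 0.47 in TIAR, and the FANCA and OGG1 probes lie on 1 side of 0.

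Of a longer list of 95 other repair genes 93 were tested. In TIA1 against HuR 12 rose and 23 fell with a median of -0.06, beside 24.2% of all probes higher and 17.3% lower. In TIAR 10 rose and 15 fell with a median of -0.05, beside 18.1% and 12.6%. More of these genes thus fell than rose. In each comparison 2 of the 93 were called, or 2.15%, beside 13.4% of all probes in TIA1 and 10.1% in TIAR. They were POLH, a polymerase that copies past lesions, up by 1.02, and RAD18, a ubiquitin ligase at stalled forks, with -1.10, in TIA1, and the glycosylases NEIL1, up by 1.24, and NEIL2, with -1.01, in TIAR. Named after their values were seen, none was called in both. POLH also fell by 1.13 in TIAR against TIA1.

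Markers of proliferating cells also differed from HuR. Of 22 such genes 12 rose and none fell in TIA1 against HuR with a median of 0.57, beside 24.2% of all probes higher and 17.3% lower. In TIAR 13 rose and none fell with a median of 0.51, beside 18.1% and 12.6%. CDC6, a licensing factor of replication origins, was called in both, by 1.37 and 1.35. Their summed signal, in units of the array's 75th percentile, was 402 and 402 in HuR, 567 and 596 in TIA1, 495 and 520 in TIAR, and 373 and 475 in GFP, so by this sum HuR lay below both TIA lines and between the GFP arrays. By the median log2 signal of the 22 genes, 2.91 and 2.91 in HuR, it lay below the 3.08 and 3.48 of GFP as well. In its measurements of cells, the study reported reduced proliferation and fewer cells in S phase with TIA1 or TIAR. With HuR it reported increased proliferation. The marker values here are of RNA and do not measure growth, and how they relate to those measurements was not tested. Several repair genes are most abundant in S phase, but the 42 genes were not sorted by phase. In TIA1 against HuR 8 of the repair genes rose and 5 fell, and in TIAR 7, with LIG4 among them, rose and 1 fell. LHX1 and EYA1 of the lineage markers were called higher in both comparisons with HuR, by 1.55 and 1.12 and by 1.08 and 1.01, and NEFL lower, with -1.40 and -1.68. Of the markers of other cells, ALB was called higher in both, by 2.82 and 2.61. The part of these genes in the repair genes' differences was not tested.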

How the data were processed

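RNA of FT293 cells expressing GFP, GFP-HuR, GFP-TIA1 or GFP-TIAR was hybridized to 8 one-colour Agilent human arrays on 1 slide, 2 per line. The authors deposited, per array, the processed signal of Feature Extraction 10.7.3.1, an intensity after background subtraction and detrending without scaling from array to array. A further table from the authors gives log2 values that were quantile-normalized, with 1 distribution for the TIAR arrays and another for the other 6, and with the background correction not given in the sources used here. Labels name a rat array in the labelling protocol, but the files and the design text name the human one, and the source name of replicate 2 of TIA1 reads GFP-TIA2 where its title and genotype read GFP-TIA1.

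From these files, log2 processed signals minus the array's 75th percentile were computed, without spots marked as outliers and with the mean taken over spots of 1 probe, giving 50599 probes. No spot was saturated. Tests were run on probes that 1 or both lines showed well above background on each of its arrays, with limma 3.58.1 (lmFit and eBayes) in R 4.3.3 on the 4 arrays of a comparison, with Benjamini-Hochberg adjustment over all tested probes. Calls needed a fold of 2 and an adjusted p under 0.05. Other packages were data.table (1.17.8) and matplotlib (3.10.9). Scripts were tested on simulated data. Probe positions are those of the design on hg19 (GRCh37), without an annotation of exons. Promoter windows are from RefSeq on GRCh38.p14, where 38 of 42 genes matched. Precision is limited by having 2 arrays a line.

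The genes and lists were chosen with earlier results of these data known. Values per array were set to be given for called genes and, in each pathway, the gene with the largest difference from HuR, and those of other genes that passed were added after their values were seen. Genes of other lists were to be named where called in both comparisons with HuR, and 1 marker gene is not reported here. Other settings tried were quantile normalization, a normexp correction (offset 50), both together, the authors' log2 values, no filter, a filter on all 4 arrays, 1 fit over 8 arrays, the replicate number as a block, any tested probe of a gene, the paired t-test and leaving out each array. The counts of arrays that do not overlap, with and without GFP 1 and without LIG4, and the bound of LIG4 without either TIAR array were added after seeing the data.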

Additional observations from a re-analysis of the deposited data

Results flagged for a closer look

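ERCC5 differed between the effects of the TIA proteins against HuR. It stood at 0.60 in TIA1 and -0.24 in TIAR relative to HuR, and the direct difference of TIAR from TIA1 was -0.83 on the log2 scale (adjusted p = 0.0455 from limma), which did not pass under 10 of 13 alternatives. RAD50, BRCA1 and MGMT had both TIA1 arrays below both HuR arrays and both TIAR arrays above them. The difference of TIAR from TIA1 was 0.35 for RAD50 (adjusted p = 0.169 from limma), 0.35 for BRCA1 (adjusted p = 0.159) and 0.29 for MGMT (adjusted p = 0.269), so none of these passed. The direct comparison of the lines was their only test, and no further test of opposite movement was made.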

How the results depend on the processing

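With each gene's brightest probe, none of the 22 differences that passed turned its direction, and 151 of the values kept their side of the threshold while 134 lost it. By its other probe XRCC3 in TIAR turned from -1.02 to 0.47. In TIA1 against HuR 13 genes passed (41.5% of all probes), and 2 with no filter on dim probes (9.27%), 5 with all 8 arrays in 1 fit (18.6%) and 0 with the adjusted paired t-test (0%). Leaving out 1 array gave 0 to 12, with 0 without either HuR array, and 0 to 1 calls (RAD51C without TIA1 replicate 1, LIG4 without TIA1 replicate 2). In TIAR against HuR 8 passed (30.7%), and 13 with the authors' values (30.1%), 0 with no filter (5.47%), 1 with 8 arrays (12.2%) and 0 with the paired t-test (0%), while leaving out 1 array gave 0 to 11. Of its 2 calls, 0 were left after quantile normalization, with no filter and with the paired t-test, and 1 with normexp and quantile normalization, the authors' values, the filter on all 4 arrays and 8 arrays, and 0 to 2 with 1 array left out. With the replicate number as a block, 9 genes passed in TIA1 (37.2%) and 3 in TIAR (20.4%), and ERCC5 no longer passed between TIAR and TIA1. Deviations of equal replicate numbers correlated at -0.07 to 0.14, and whether equal numbers mark a shared batch is not known here. Against GFP, 8 arrays in 1 fit gave 2 calls in TIA1 (XRCC3 and LIG3), 1 in TIAR (XRCC1) and 1 in HuR (MRE11A), beside 9.03%, 5.93% and 3.93% of all probes, and leaving out 1 array gave 0 to 2, 0 to 3 and 0 to 2. ERCC5 between TIAR and TIA1 still passed under 3 of 13 alternatives, with values of -0.91 to -0.67. The median of all probes moved to 0.00 in TIA1 against HuR under quantile normalization and to 0.33 with no filter, and that of the genes in HuR against GFP went from 0.15 to -0.04 with the authors' values. LIG4 was limited by signal over background. Except where an alternative uses fewer arrays, fewer or more probes, the cause of these shifts was not tested.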
